A study of Mus musculus with 36 samples.

Results

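The cells described here carried both MHC class II and CD11b on their surface, as read from DNA-tagged antibodies, in 4 mouse submandibular salivary glands profiled by CITE-seq, an assay that counts surface antibody tags and RNA molecules in the same single cell. They were chosen by tag counts alone: at least 200 tags of the antibody IAIE_MHC and at least 20 tags of the antibody CD11b, in barcodes with 100 or more and fewer than 2500 genes and under 15% mitochondrial UMIs (unique molecular identifiers, each standing for 1 captured RNA molecule). The rule took 273 of the 2535 cells within these limits, out of 3095 barcodes. It left an equal number, 273 cells, with IAIE_MHC at 200 or more and CD11b under 20, which served as the comparison. Across the whole study, 25881 cells in 30 glands passed the limits that applied to them, and 23346 of those came from Drop-seq glands without antibodies and could not be sorted by this rule.

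All 4 glands were taken at postnatal day 70 from C57BL/6-background mice that carried K14-Cre, which is active in keratin 14-expressing basal epithelial cells, and an EYFP reporter. The 2 control glands had no further alteration, and the 2 double-mutant glands had a gain-of-function β-catenin allele and loss of the BMP receptor gene Bmpr1a in the Cre lineage (β-catGOF; Bmpr1aLOF), a model of salivary gland tumors. Recombination in the cells described here was not tested. Each gland came from 1 animal and was dissociated, sorted for live cells, stained and sequenced separately. Control replicate 1 is labelled male and the other 3 animals female, whereas a drawing of the experiment in the study shows both controls as female. The female-specific transcript Xist was at 0.864 UMIs per 10000 in the library labelled male and at 0.748 in control replicate 2, and the Y-linked gene Ddx3y gave 20 and 22 UMIs, so these transcripts did not separate the control libraries. In the double-mutant glands Xist was at 1.75 and 2.30 UMIs per 10000 and Ddx3y gave 3 and 1 UMIs. Eif2s3y, also Y-linked, stood at 0.160 and 0.195 UMIs per 10000 in the controls and at 0.118 and 0.119 in the double-mutant glands. Kdm5d (0.0298) and Uty (0.0448) were highest in double-mutant replicate 2. Within the cells described here Xist was higher in the controls, at 5.57 and 7.71 against 2.29 and 2.62, with cells of high isotype tags (described below) left out. These transcripts did not settle sex, which cannot be told apart from genotype below.

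MHC class II molecules display peptides from taken-up proteins to helper T cells and are carried by macrophages, dendritic cells and B cells. CD11b is the αM integrin chain, encoded by Itgam, which pairs with CD18 into an adhesion and complement receptor on macrophages, monocytes, neutrophils and a class of conventional dendritic cells. Resident macrophages of glands take up debris, produce complement C1q and signal through the CSF1 receptor. A cell with both surface proteins can thus be a macrophage, a monocyte on its way to becoming one, or a dendritic cell of the CD11b class, and RNA is needed to tell these apart.

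The members numbered 81 and 48 in the control glands (replicates 1 and 2) and 75 and 69 in the double-mutant glands. As a share of all cells they made up 12.1% (95% exact binomial interval 9.69 to 14.8) and 6.59% (4.90 to 8.65) of the control glands and 11.8% (9.36 to 14.5) and 13.9% (10.97 to 17.24) of the double-mutant glands. The groups overlapped, and the double-mutant mean exceeded the control mean by 3.50 percentage points (two-sided exact permutation test, p = 0.667, n = 2 glands per genotype), in a design whose smallest possible p is 0.333. The overlap was slight and depended on the limits. Without the cells of high isotype tags (described below) the shares were 10.6% and 6.46% against 11.1% and 12.9%, with no overlap. The groups were also apart with CD11b from 10 (13.99% and 9.89% against 17.4% and 20.9%) or IAIE_MHC from 100. They overlapped with CD11b from 40 (7.89% and 4.53% against 7.84% and 8.25%) or IAIE_MHC from 400. The gap was wider in the comparison cells. MHC class II high cells with low CD11b made up 4.91% and 6.18% of the control cells and 16.5% and 18.1% of the double-mutant cells, a difference of 11.7 percentage points with no overlap (exact permutation test, p = 0.333). The members were therefore 71.1% and 51.6% of the MHC class II high cells in the controls and 41.7% and 43.4% in the double-mutant glands, a fall of 18.8 percentage points (exact permutation test, p = 0.333). The CD11b limit is a raw tag count, and tag depth differed by gland. Median tags per cell, controls first, were 4457, 3500, 2275 and 2047 in members and 3360, 1816, 1563 and 1562 in comparison cells. In cells below the MHC class II limit they were 1132, 671, 663 and 642.5. The part of tag depth in these shares was not tested. All shares are of sorted, captured cells, and more of one cell type cannot be told apart from fewer of another. Intervals cover counting error only.

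**Figure D1:**
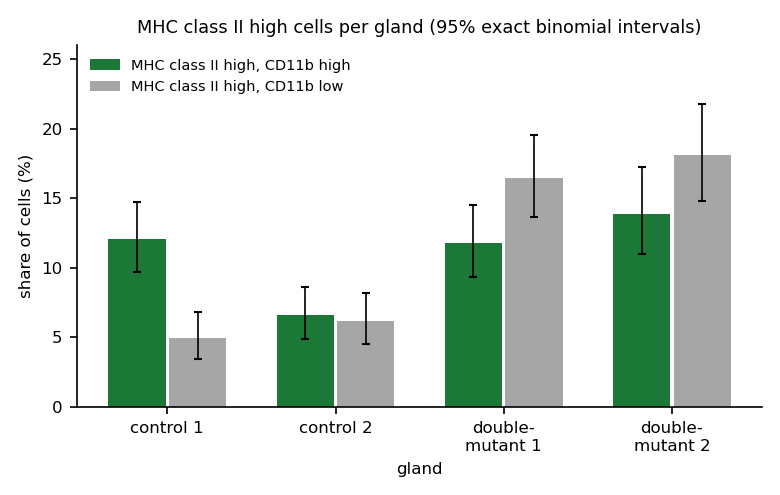
Share of cells (%, vertical axis) that were MHC class II high with CD11b high (green) or CD11b low (grey), for each of the 4 glands; error bars are 95% exact binomial intervals. The green bars of the control glands, 12.1% and 6.59%, bracket the 11.8% of double-mutant replicate 1, while both double-mutant grey bars, 16.5% and 18.1%, stand above both control grey bars.

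The tags that chose the cells are given as a description. Median IAIE_MHC counts of the members were 2752 and 2714 in the controls and 1101 and 991 in the double-mutant glands, over a range of 223 to 19660 in all members. Median CD11b counts were 54, 51.5, 57 and 50, against 7, 11, 7 and 7 in the comparison cells and at most 1 in cells below the MHC class II limit. The CD11b threshold cut through a continuous distribution, with 40 MHC class II high cells at 15 to 19 tags and 31 cells at 20 to 24 tags. The IAIE_MHC threshold fell where cells were sparse, with 8 CD11b high cells at 150 to 199 tags and 6 at 200 to 249.

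Depth differed between the populations and belongs beside every result that follows. The members held a median of 796 UMIs, 473 genes and 2923 antibody tags per cell, and the comparison cells 615 UMIs, 391 genes and 1790 tags. Summed over members, the glands gave 75498, 46212, 89053 and 68546 UMIs. Over the 6 pairs of libraries 9 barcodes were shared, and 3 members had such a barcode. In 20 of the 273 members the 4 isotype control antibodies, which are directed at no target in these cells, summed to 100 tags or more (10, 1, 4 and 5 per gland), as they did in 6 comparison cells and in 222 of 1989 cells below the MHC class II limit. RNA of those 20 members looked different: per 10000 UMIs they held 248 UMIs of Prol1, a secreted acinar protein, and 92.4 of Cd74, where the other 253 members held 23.1 and 381. Lyz2 stood at 3.36 against 63.0 UMIs per 10000. Counts of genes that passed are given with and without them, a limit set after the data were seen. Sums of gene lists and shares of cells with a detected gene are given with them only.

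Macrophage genes were abundant in the members. The list of 20 macrophage genes summed to 205, 286, 365 and 351 UMIs per 10000 in the members of the 4 glands (control replicates 1 and 2, then double-mutant replicates 1 and 2, the order used throughout) and to 150, 191, 279 and 261 in the comparison cells, against 1.70 to 33.1 in cells below the MHC class II limit. After every cell was thinned to 400 UMIs, C1qa, C1qb or C1qc, the complement C1q subunits, were detected in 80.6% of 253 members (75.2 to 85.3) and 88.5% of 235 comparison cells (83.7 to 92.3). By gland the shares were 79.45%, 85.4%, 82.2% and 76.3% in members against 80.65%, 79.55%, 88.5% and 97.3%, so the direction was mixed. Intervals pooled over glands, here and below, cover counting error only and not the spread between glands. Too shallow to be thinned were 20 members and 38 comparison cells. Unthinned, the shares were 82.1% and 89.4%, against 4.58% of cells below the MHC class II limit, which also held more UMIs (a median of 1294). The 12 MHC class II presentation genes summed to 678, 817, 698 and 623 UMIs per 10000 in members and to 0.620 to 20.9 in cells below the limit, so the cells chosen by antibody stood apart in MHC class II RNA as well.

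Defining genes of other cell types were rare in the members. T cell gene Cd3e, B cell gene Cd79a and neutrophil gene Ly6g gave 0 UMIs in all members. Other genes of these lists were detected. The neutrophil granule genes S100a8 and S100a9 gave 7 and 5 UMIs, all in 1 cell of double-mutant replicate 2. The neutrophil list summed to 1.325, 0.866, 2.47 and 3.94 UMIs per 10000 in the members. In the comparison cells this list was lower in every gland, at 0.326, 0.215, 0.283 and 0.608. B cell genes summed to 1.235 to 2.38 UMIs per 10000 in the members. Xcr1 or Clec9a, receptors of type 1 conventional dendritic cells, were seen in 0 of 253 thinned members and in 5 of 235 thinned comparison cells; with all UMIs they were seen in 2 of 273 and 7 of 273. These counts limit the cells with a UMI at this depth, not the cells of that type. The sum of the type 1 dendritic cell list, 66.3 to 119 UMIs per 10000, rested mainly on Cst3, a protease inhibitor that macrophages also express. The 9 detected genes of the type 2 dendritic cell list summed to 4.90, 8.87, 9.43 and 11.7 in the members and to 3.91, 4.51, 4.24 and 3.34 in the comparison cells. Of these genes, Mgl2 (30 against 5 UMIs) and Cd209a (15 against 0 UMIs), lectins shared by type 2 dendritic cells and some macrophages, came mainly from the CD11b high cells. Endothelial genes summed to at most 0.795 and fibroblast genes to at most 2.04 UMIs per 10000 in the members, and T and NK cell genes to 1.95 to 7.75, mostly the chemokine gene Ccl5. Doublets other than human-mouse pairs were not removed from these data.

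Epithelial RNA was the largest signal from other cell types in the control glands, and it was spread unevenly over the groups. The epithelial list summed to 146, 47.6, 37.6 and 23.6 UMIs per 10000 in the members, to 381, 462, 12.7 and 17.9 in the comparison cells and to 361 to 704 in cells below the MHC class II limit. The control comparison cells thus held more of it than the control members, and the double-mutant comparison cells less than the double-mutant members. These sums include the cells of high isotype tags. The 6 such comparison cells held 749 UMIs of Prol1 per 10000, and the other 267 held 29.7. Without them the control comparison cells fell from 30704 to 19695 and from 46567 to 31693 UMIs. Prol1 then stood at 37.5, 36.1, 17.7 and 9.54 in the members and at 59.4, 96.9, 7.83 and 11.9 in the comparison cells. Plasma cell genes, led by the immunoglobulin genes Igkc and Igha, summed to 2.25, 1.30, 15.5 and 98.9 in the members, and to 40.7, 29.8, 991 and 824 in cells below the limit. Erythrocyte genes summed to 1.46, 2.38, 3.93 and 9.34 in the members and to 1.75, 0.530, 135 and 251 below the limit. The part of free RNA in these values was not tested.

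**Figure D2:**
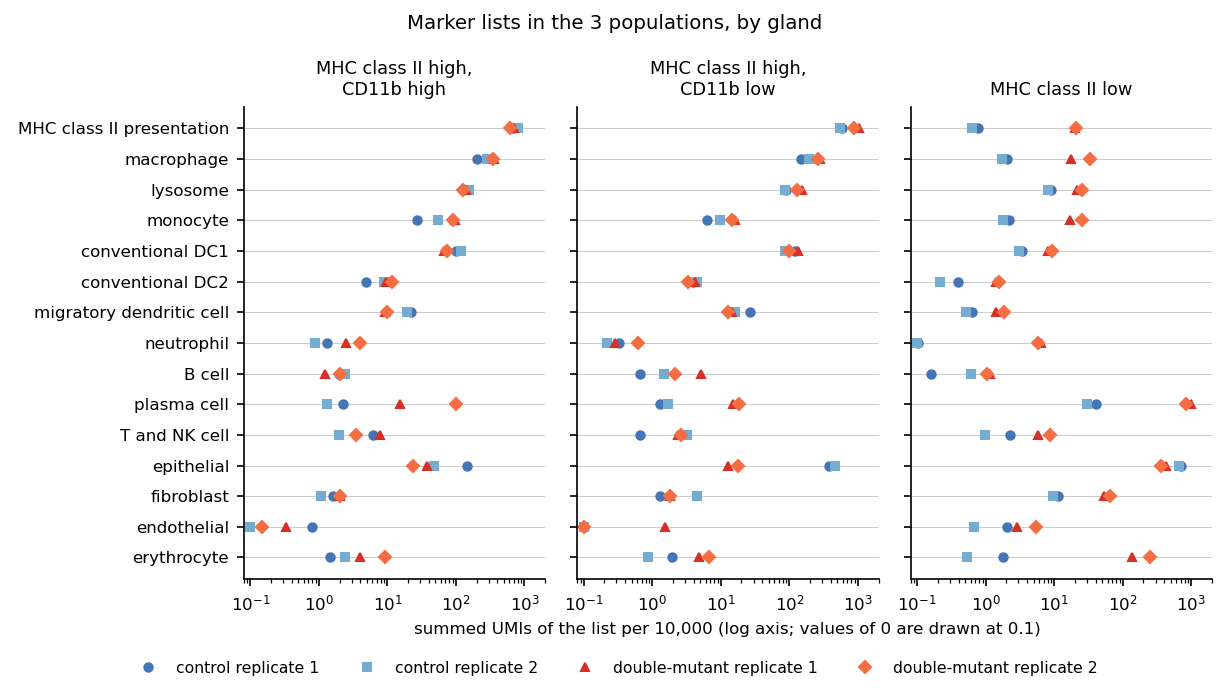
Summed UMIs per 10000 (horizontal log axis; 0 is drawn at 0.1) of 15 marker gene lists in members (left), MHC class II high, CD11b low cells (middle) and MHC class II low cells (right); each symbol is 1 gland. Macrophage and MHC class II lists stand at 205 UMIs per 10000 or more in every gland's members, and epithelial genes reach 462 in the CD11b low cells of a control gland. Cells of high isotype tags are included.

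Which genes differed with CD11b among MHC class II high cells was asked with RNA, which the choice of cells had not used. UMIs were summed per gland and population and both populations of a gland were compared within it. Of 903 genes tested, 1 rose and 1 fell in the members, 0.221% of those tested (edgeR's quasi-likelihood test with gland as a block and Benjamini-Hochberg adjusted p under 0.05), and 88 genes had an unadjusted p under 0.05. The gene that rose was Lyz2, encoding the lysozyme of macrophages and monocytes. The gene that fell was Plau, encoding urokinase, a secreted plasminogen activator.

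Lyz2 stood at 21.2, 44.8, 75.2 and 69.2 UMIs per 10000 in the members and at 2.93, 7.95, 10.04 and 10.94 in the CD11b low cells of the same glands. Every member value lay above every comparison value, and Lyz2 was higher in the members of all 4 glands (log2 fold change 2.49, SE 0.27, edgeR's quasi-likelihood test, Benjamini-Hochberg adjusted p = 0.00612). Without the cells of high isotype tags Lyz2 stood at 29.5, 50.7, 85.1 and 71.6 in the members and at 4.57, 11.4, 10.1 and 10.9 in the comparison cells. In cells thinned to equal depth, Lyz2 was detected in 42.5%, 60.4%, 69.9% and 59.3% of members and in 9.68%, 36.4%, 31.0% and 23.3% of comparison cells, or 57.7% (51.4 to 63.9) against 26.8% (21.3 to 33.0) over all glands. Cells below the MHC class II limit had a Lyz2 UMI in 0.717%, 0.472%, 8.52% and 10.1% of cases without thinning, at a median depth of 1294 UMIs. Among cells that also had a C1q UMI the thinned shares were 63.2% and 29.3%, so Lyz2 was also seen more often in members when both populations were limited to C1q-positive cells.

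Plau stood at 4.11, 4.33, 4.27 and 3.65 UMIs per 10000 in the members, a narrow range, and at 11.1, 6.23, 9.90 and 8.05 in the comparison cells. It was lower in the members of all 4 glands (log2 fold change −1.31, SE 0.19, edgeR's quasi-likelihood test, Benjamini-Hochberg adjusted p = 0.0351). Thinned cells had a Plau UMI in 13.8% of members and 25.1% of comparison cells. The call was lost when either double-mutant gland was left out (adjusted p = 0.0642 without replicate 1 and 0.121 without replicate 2), whereas that of Lyz2 stood without any 1 gland (adjusted p 0.000613 to 0.0451).

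With the cells of high isotype tags left out, 9 of 858 genes passed, 1.05%, in the same test. The 6 that rose were Lyz2 (log2 fold change 2.55), Ccl6 (2.21), Ctsd (1.94), Fcgr2b (1.84), Ccl9 (1.73) and Emp3 (1.605), with adjusted p from 0.000282 to 0.0214 by edgeR's quasi-likelihood test. Ccl6 and Ccl9 encode CC chemokines of mouse myeloid cells, Ctsd the lysosomal protease cathepsin D, Fcgr2b the inhibitory receptor for IgG, and Emp3 a membrane protein. The 3 that fell were Plau (−1.26) and the genes of the inflammatory chemokines MIP-1α and MIP-1β, Ccl3 (−1.14) and Ccl4 (−1.14), with adjusted p = 0.0198 for each by the same test. All 9 were also among the 31 of 736 genes, 4.21%, that passed in an epithelial alternative. It left out MHC class II high cells in the top 10% by tags of the epithelial antibody EpCAM or by UMIs of the epithelial list. Because either was enough, more than 10% of cells went, and unevenly over the glands. The alternative kept 57, 43, 68 and 60 members and 24, 31, 98 and 88 comparison cells.

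The called chemokine genes went in both directions. Ccl6 stood at 2.91, 3.68, 5.84 and 4.67 UMIs per 10000 in the members and at 1.30, 0.859, 0.707 and 1.06 in the comparison cells, and Ccl9 was likewise higher in all 4 glands. Ccl4 stood at 58.7, 64.9, 19.7 and 23.8 in the members and at 74.9, 71.7, 67.7 and 58.5 in the comparison cells. The control members were thus close to the comparison cells and the double-mutant members stood well below them. Ccl3 followed the same course, at 30.2, 33.97, 10.8 and 12.3 against 40.7, 35.0, 35.5 and 29.6. In all cells neither gene passed (edgeR's quasi-likelihood test, Benjamini-Hochberg adjusted p = 0.147 for Ccl4 and 0.114 for Ccl3). Of the 13 tested genes of inflammatory cytokines and chemokines, 0 passed in all cells, at a median log2 fold change of −0.52 against −0.0025 over all genes tested, and without the cells of high isotype tags 2 rose and 2 fell. Cxcl2 and Il1b, of neutrophil recruitment and the inflammasome pathway, had log2 fold changes of −0.85 and −0.61 and did not pass in all cells. In the epithelial alternative both passed (−0.86 and −0.67, edgeR's quasi-likelihood test, adjusted p = 0.00277 and 0.028).

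**Figure D3:**
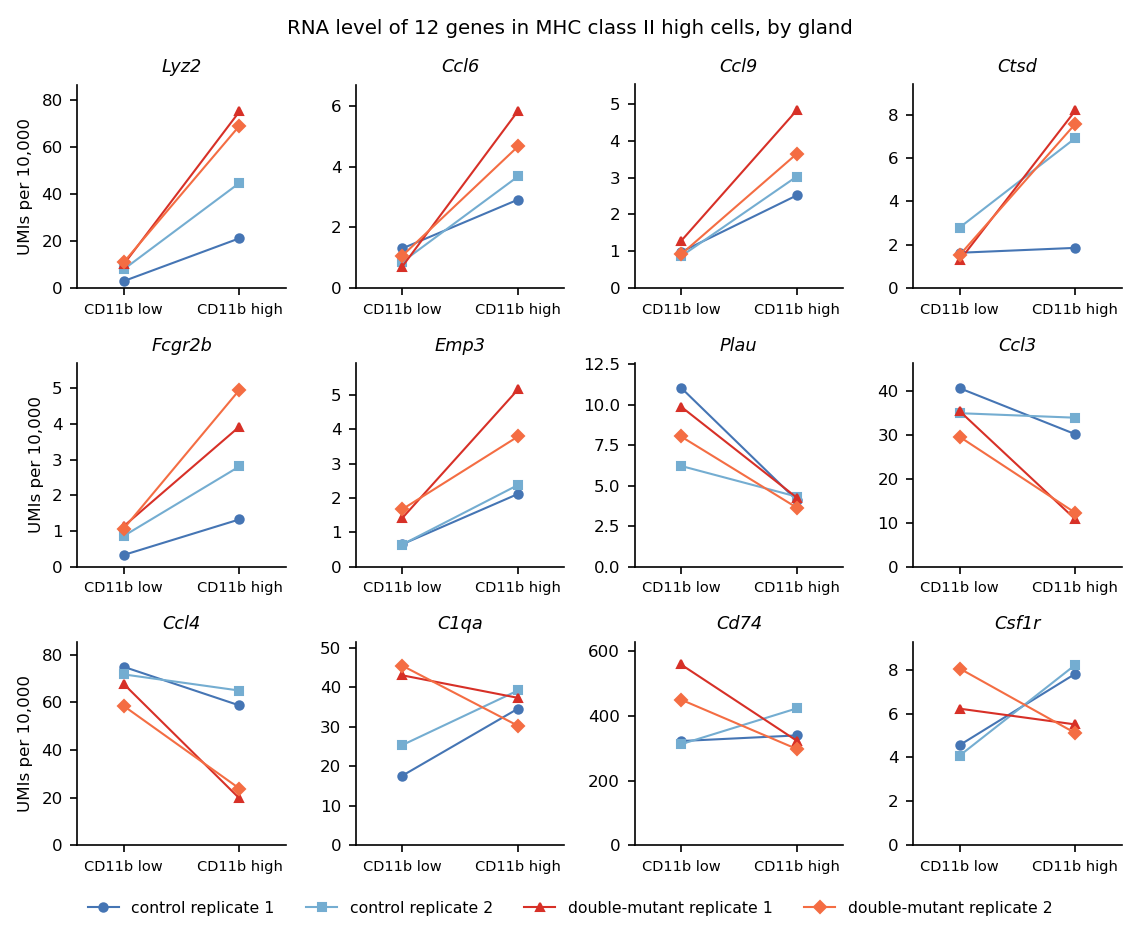
UMIs per 10000 (vertical axes from 0) of 12 genes in CD11b low (left point) and CD11b high cells (right point) that are MHC class II high; each line joins both populations of 1 gland, all cells included. Lyz2, Ccl6, Ccl9, Ctsd, Fcgr2b and Emp3 lie higher in the CD11b high cells of all 4 glands, Plau, Ccl3 and Ccl4 lower, and C1qa goes up in the control and down in the double-mutant glands.

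Other macrophage genes gave no call between the populations. Of 14 tested macrophage genes 1 rose (Lyz2) and 0 fell, at a median log2 fold change of −0.036. C1qa stood at 34.6, 39.2, 37.3 and 30.2 UMIs per 10000 in the members and at 17.6, 25.3, 42.99 and 45.4 in the comparison cells (log2 fold change −0.06, SE 0.25), higher in the control members and lower in the double-mutant members. Without the cells of high isotype tags C1qa stood at 45.5, 44.8, 41.9 and 30.8 against 27.4, 37.2, 43.3 and 45.4. Csf1r, the receptor for the macrophage growth factor CSF1, stood at 7.82, 8.22, 5.50 and 5.11 in the members and at 4.56, 4.08, 6.22 and 8.05 in the comparison cells. Apoe, the lipid carrier, had a log2 fold change of 0.01 (SE 0.34). Without the cells of high isotype tags Apoe stood at 65.5 and 96.0 UMIs per 10000 in the control members against 89.4 and 110 in the comparison cells, and at 159 and 149 against 101 and 92.5 in the double-mutant glands, and this difference between genotypes passed (difference of log2 fold changes 1.199, SE 0.21, edgeR's quasi-likelihood test, adjusted p = 0.0021). It did not pass in all cells (1.21, adjusted p = 0.304, edgeR). Cx3cr1, the fractalkine receptor of resident macrophages, had a log2 fold change of −0.25 between the populations (SE 0.30). Apart from Lyz2, none of these passed between the populations.

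Few monocyte genes held enough UMIs to test. The monocyte list summed to 27.3, 55.6, 95.6 and 91.5 UMIs per 10000 in the members and to 6.19, 9.88, 15.8 and 14.6 in the comparison cells, the larger part of it Lyz2. Of its 2 tested genes 1 rose (Lyz2). The other, Ifitm3, an interferon-induced membrane protein, had a log2 fold change of 1.16 (SE 0.28, edgeR's quasi-likelihood test, adjusted p = 0.147). Ifitm3 passed in the epithelial alternative (1.31, same test, adjusted p = 0.0167). Below the filter on low counts, Ccr2, the receptor that brings monocytes into tissue, gave 6, 10, 43 and 28 UMIs in the members and 2, 2, 3 and 1 in the comparison cells. S100a4 gave 11, 4, 20 and 30 UMIs in the members and 0 in all comparison cells, and Ly6c2 2, 0, 13 and 9 against 0. Outside that list, the extracellular matrix gene Fn1 gave 0, 2, 13 and 17 UMIs against 0, and the mannose receptor gene Mrc1 1, 7, 31 and 20 against 0, 0, 1 and 1. Most of these UMIs came from the double-mutant glands, and Ccr2 was close in both populations of control replicate 1, at 0.795 and 0.651 UMIs per 10000. These genes carried no test, and the members held more UMIs per cell than the comparison cells.

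The MHC class II genes gave no call in all cells. Of 7 tested genes of the list 0 passed, at a median log2 fold change of −0.19. Cd74, the invariant chain, stood at 340, 423, 323 and 298 UMIs per 10000 in the members and at 322, 312, 559 and 450 in the comparison cells (log2 fold change −0.47, SE 0.34). H2-Ab1, H2-Aa and Ctss, encoding the β and α chains of I-A and cathepsin S, had log2 fold changes of −0.15, −0.26 and −0.31. Each was higher in the control members and lower in the double-mutant members than in the comparison cells of the same glands. Without the cells of high isotype tags the direction turned in control replicate 1 for Cd74 (436 UMIs per 10000 in members against 502) and H2-Aa (169 against 187), and stood in the other glands. In the epithelial alternative, Cd74 passed as lower in the members (log2 fold change −0.53, edgeR's quasi-likelihood test, adjusted p = 0.00171).

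The transcript of CD11b itself was scarce and not restricted to cells with the tag. Itgam gave 1.19, 2.16, 2.25 and 2.48 UMIs per 10000 in the members, 0, 0, 1.56 and 2.13 in the comparison cells, and 2.34, 3.06, 1.89 and 2.41 in cells below the MHC class II limit, whose median CD11b tag count was at most 1. In both control glands the members lay below the cells that had almost no CD11b tags, and in the double-mutant glands slightly above them. Of the 2 tested integrin genes, Itgam and Itgb1, 0 passed. Itgb2, the CD18 partner, gave 33 UMIs in the members and 17 in the comparison cells, and Itgax, encoding CD11c, 27 and 20.

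The remaining lists gave no call in all cells. Of 17 lysosomal genes 0 passed in all cells (median log2 fold change 0.08), and Ctsd alone passed without the cells of high isotype tags. The 14 immediate early and heat shock genes, which respond to dissociation, had 0 called and a median log2 fold change of −0.26. Of the 7 tested genes of tissue-remodeling macrophages 0 passed. Their matrix metalloelastase Mmp12 had a log2 fold change of −1.55 and the intermediate filament gene Vim of 1.80 (SE 0.38). Vim passed in the epithelial alternative (1.77, edgeR's quasi-likelihood test, adjusted p = 0.0107). The 2 tested Fc receptor genes Fcer1g and Fcgr3 had log2 fold changes of 0.04 and −0.08, and a further one, Fcgr2b, was not tested in all cells and passed without the cells of high isotype tags. No interferon-stimulated, proliferation, B cell, plasma cell or migratory dendritic cell gene passed in all cells, with 2, 2, 1, 2 and 1 tested. The same held for the type 1 and type 2 dendritic cell lists and the T and NK cell, epithelial and erythrocyte lists, with 2, 2, 1, 3 and 1 tested. Neutrophil, endothelial and fibroblast genes had 0 tested. In the epithelial alternative Igha (1.86) and Cd83 (−0.57) passed between the populations (edgeR's quasi-likelihood test, adjusted p = 0.0027 and 0.0468).

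Within the MHC class II high cells, Lyz2 pooled over glands was higher in each successive class of CD11b count. In cells with isotype tags under 100, pooled over glands, Lyz2 stood at 5.19 UMIs per 10000 at 0 to 4 CD11b tags (86 cells), 12.2 at 5 to 19 (181 cells), 41.1 at 20 to 39 (89 cells), 51.5 at 40 to 79 (79 cells) and 87.7 at 80 or more (85 cells). Ccl4 fell from 80.7 at 5 to 19 tags to 60.5, 43.6 and 31.1 in the higher classes, with 66.1 in the lowest. Single glands departed from this pooled course. In control replicate 2 Ccl4 rose from 103 at 5 to 19 tags to 143 at 20 to 39. From 40 to 79 tags to 80 or more it rose from 47.6 to 58.9 in control replicate 2 and from 9.89 to 25.9 in double-mutant replicate 2. Vim stood at 1.38, 1.85, 4.52, 4.40 and 10.5, while C1qa stayed between 34.7 and 47.1. Median depth also moved with CD11b, from 603 UMIs per cell in the lowest class to 988 in the highest. Within the glands the lowest class held as few as 8 cells and the upper classes as few as 14. Lyz2 was higher in the highest class than in the lowest in each gland, at 42.9 against 0, 83.9 against 7.31, 113 against 4.32 and 86.7 against 6.03. From 40 to 79 tags to 80 or more it went from 89.0 to 86.7 in double-mutant replicate 2, and with all cells included from 23.5 to 22.99 in control replicate 1 and from 86.7 to 83.9 in double-mutant replicate 2.

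**Figure D4:**
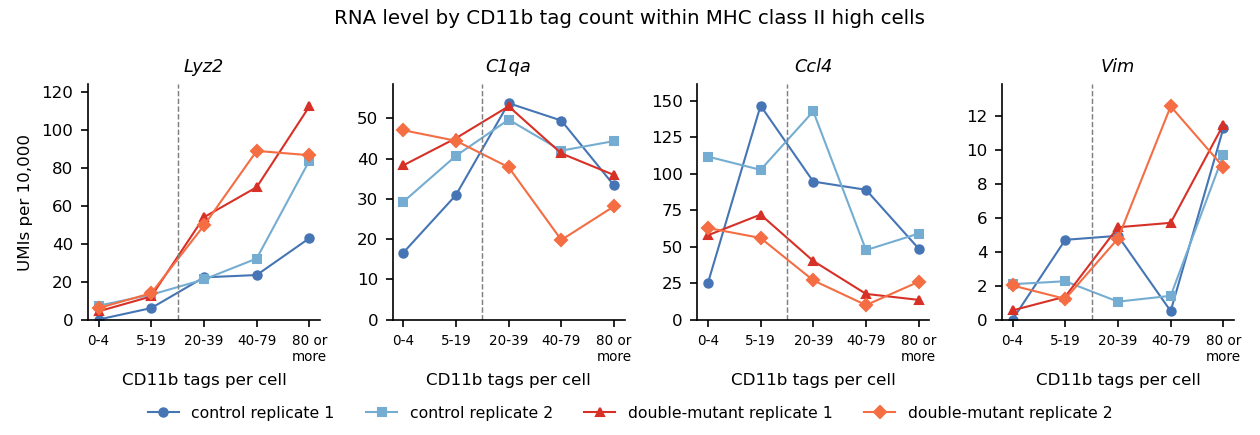
UMIs per 10000 (vertical axes from 0) of Lyz2, C1qa, Ccl4 and Vim in MHC class II high cells grouped by CD11b tag count (horizontal axis), 1 line per gland, cells with isotype tags of 100 or more left out; the dashed line marks the limit of 20 tags. Lyz2 climbs to between 42.9 and 113 in the highest class, and C1qa has no common course.

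Other antibodies were read as counts, with the isotype controls beside them and no test. Total tags per cell differed between the populations, and the median counts of the 4 isotype controls were themselves 1 to 1.5 times as high in members as in comparison cells. Of 55 other antibodies, 21 had a higher median count in the members of all 4 glands, as had 2 of the 4 isotype controls. Expressed as a share of a cell's other tags, 4 antibodies did so.

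SIRPα (CD172a), the inhibitory receptor for CD47 on macrophages and type 2 dendritic cells, had the highest ratio among well-stained antibodies after CD11b. Its median count was 64, 46, 54 and 54 in the members and 31, 14, 18 and 18.5 in the comparison cells, with 1 to 3 in cells below the MHC class II limit. The ratio was 2.07, 3.29, 3 and 2.92, above every isotype ratio, and as a share of tags the median ratio was 2.03. Sirpa RNA gave 48 UMIs in the members and 32 in the comparison cells (log2 fold change 0.05, SE 0.44, not passing).

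CD11c, the αX integrin of dendritic cells and many tissue macrophages, had medians of 86, 49, 68 and 58 against 61, 28, 39 and 34.5 (ratios 1.41 to 1.75). CD54, the adhesion molecule ICAM-1, had ratios of 1.27 to 1.76, and CD29, the β1 integrin, of 1.37 to 1.93. As a share of tags the ratios were 0.863 to 1.71 for CD11c, 0.967 to 1.27 for CD54 and 0.898 to 1.48 for CD29, each above 1 in 3 glands. On that scale SIRPα was the only 1 of 11 well-stained antibodies above 1 in every gland, CD11b and IAIE_MHC not counted. The tags TCRg_d (ratios 1.33 to 1.55), Notch4 (1.14 to 1.43), CD69 (0.842 to 1.45) and CD71, the transferrin receptor (1.125 to 1.61), lay near the isotype range. The lowest ratios among well-stained antibodies were those of CD71, CD95 (0.868 to 1.39), CD133 (1.119 to 1.25) and Jagged2 (1.06 to 1.18). Notch4, CD133 and Jagged2 gave 36 tags or more per member in the median, yet their genes Notch4, Prom1 and Jag2 gave 0 UMIs in the members. The same 3 antibodies also gave medians of 26 to 138 tags in cells below the MHC class II limit.

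The antibodies of monocytes and neutrophils had low medians. Median Ly6C was 4, 2, 2 and 1 and median Ly6G 4, 2, 3 and 2 tags in the members, below the mean of the isotype medians of each gland, 5.75 to 9.75. The same held for CX3CR1 (3 to 7 tags) and CD115, the CSF1 receptor (2 to 7 tags), although both genes gave RNA in the members. Ly6C had a tail: its mean share of a cell's tags was 0.420%, 0.307%, 0.727% and 1.14% in the members and 0.409%, 0.459%, 0.210% and 0.202% in the comparison cells. The antibodies to CD205 and Trop2 had medians of 0 in each population.

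**Figure D5:**
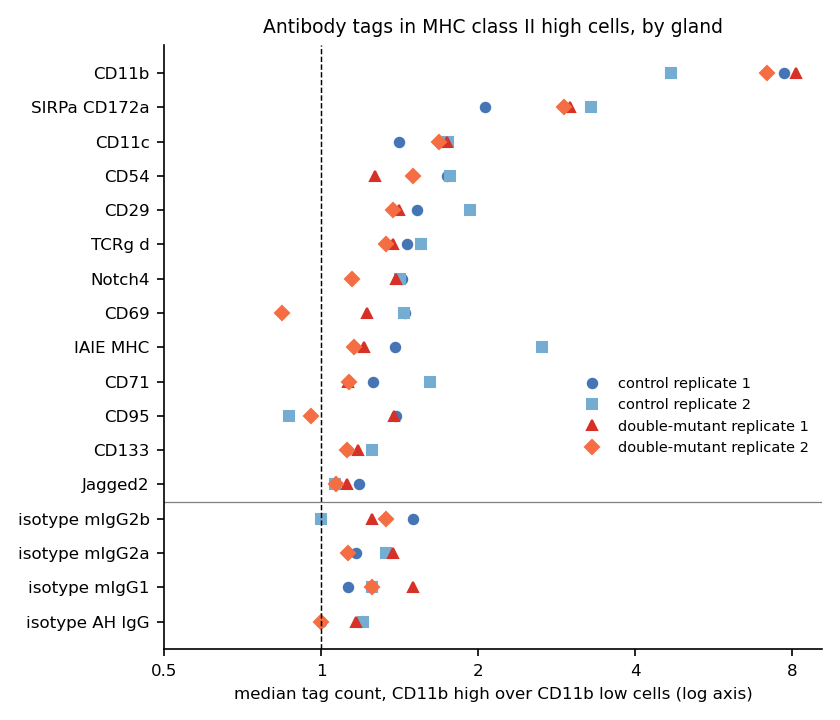
Ratio of the median tag count in CD11b high over CD11b low cells (horizontal log axis) for the well-stained antibodies, at 3 or more times the isotype level, and the 4 isotype controls (lowest lines); each symbol is 1 gland and the dashed line marks equal counts. CD11b, which chose the cells, lies at 4.68 to 8.14 and SIRPα at 2.07 to 3.29, while isotype controls lie at 1 to 1.5.

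Whether the members differed between genotypes was tested over 2 glands against 2, with p-values that rest on the spread between those animals. Of 1124 genes 2 rose and 0 fell in the double-mutant members, 0.178% (edgeR's quasi-likelihood test, Benjamini-Hochberg adjusted p under 0.05), and 168 genes had an unadjusted p under 0.05. Lyz1, encoding the lysozyme of intestinal Paneth cells, stood at 0.265 and 0.433 UMIs per 10000 in the controls and at 5.17 and 6.27 in the double-mutant glands (log2 fold change 3.90, SE 0.43, adjusted p = 0.0268). Lyz1 is a near-identical neighbor of Lyz2, and reads could have been split between them, so its value is uncertain. Lyz2 itself had a log2 fold change of 1.07 and did not pass (edgeR, adjusted p = 0.252). In the epithelial alternative Lyz2 passed (1.06, edgeR's quasi-likelihood test, adjusted p = 0.0264).

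Ftl2, a copy of the ferritin light chain gene, gave 0 UMIs in the control members and 57 and 67 UMIs in the double-mutant members, at least 31.9-fold higher against a floor of 3 UMIs over the control group. It was at 0 in the comparison cells and in all other cells of both control glands too, and at 6.51 and 10.6 UMIs per 10000 in the double-mutant comparison cells, so the difference was present in CD11b low cells too. Whether the control and double-mutant animals differ in strain at Ftl2 or at H2-Eb1 was not tested. Igha gave 0 and 378 UMIs summed over the glands of each genotype, at least 97.3-fold higher by the same floor, and did not pass (adjusted p = 0.125, edgeR). The 2 double-mutant glands differed, at 6.49 UMIs per 10000 in replicate 1 and 48.3 in replicate 2 without the cells of high isotype tags. Igha stood at 336 and 312 UMIs per 10000 in the double-mutant cells below the MHC class II limit against 14.5 and 9.32 in the control ones.

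Without the cells of high isotype tags 17 of 992 genes passed, 1.71%, of which 5 rose and 12 fell. The largest falls outside epithelial genes were those of the prostaglandin-degrading enzyme gene Hpgd (log2 fold change −2.73), the cytokine gene Il1a (−2.06), Ccl3 (−1.82, SE 0.19) and Ccl4 (−1.76, SE 0.17), with adjusted p = 0.00717 for both chemokines by edgeR's quasi-likelihood test. The inflammatory response genes Nfkbiz (−1.66), Cd83 (−1.46) and Zfp36 (−1.21) and the protease inhibitor gene Cst3 (−0.86) also fell, as did the salivary secretory genes Klk1b26, Scgb2b26 and Spt1. The genes that rose were Ftl2, Lyz1, the pseudogenes Gm6472 (2.02) and Gm10076 (1.82), and H2-Eb1 (0.98), the β chain of the MHC class II molecule I-E. In all members, Ccl3 and Ccl4 had log2 fold changes of −1.59 and −1.62 and did not pass (adjusted p = 0.0829 and 0.0868). Without double-mutant replicate 1, 0 genes passed between genotypes (155 with an unadjusted p under 0.05, edgeR), and without any other gland 44 to 57 passed, with a lone gland assumed to vary like the others.

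H2-Eb1 stood at 32.6 and 45.2 UMIs per 10000 in the control members and at 88.2 and 77.9 in the double-mutant members. In the comparison cells the gap was wider, 7.49 and 19.97 against 116 and 99.8. This difference between populations passed without the cells of high isotype tags (difference of log2 fold changes −1.26, SE 0.31, edgeR's quasi-likelihood test, adjusted p = 0.0333) and not in all cells (−1.36, adjusted p = 0.344). H2-Aa went the other way in the members, at 132 and 145 against 100.2 and 90.5, and did not pass in all members. In the epithelial alternative it passed (log2 fold change −0.76, edgeR's quasi-likelihood test, adjusted p = 0.0487).

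Whether the difference between members and comparison cells differed between genotypes was tested as an interaction. In 7 of 903 genes, 0.775%, the difference between members and comparison cells was shifted upward in the double-mutant glands (edgeR's quasi-likelihood test, adjusted p under 0.05), and in 0 downward, and 88 had an unadjusted p under 0.05. Of these 7, Mucl1, Klk1, Car6 and Pip encode secreted proteins of the salivary epithelium. Klk1, a kallikrein of the ducts, stood at 82.1 and 131 UMIs per 10000 in the control comparison cells and at 3.58 and 5.63 in the control members, while all double-mutant values lay between 0.456 and 1.46. Among MHC class II high cells the epithelial list was highest in the same control comparison cells, at 381 and 462 UMIs per 10000 with cells of high isotype tags included. That list holds 1 of the 7 genes, so it is not independent of them.

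Mmp12 and Crip1, a LIM-domain protein of hematopoietic and epithelial cells, were the interaction genes outside epithelial secretion, with the mitochondrial ribosomal RNA mt-Rnr1. Mmp12 stood at 15.3 and 1.93 UMIs per 10000 in the control comparison cells and at 1.33 and 0.433 in the control members. In control replicate 1 the 9 comparison cells with 0 to 4 CD11b tags held 59.2 UMIs of Mmp12 per 10000. The 24 comparison cells of that gland with 5 to 19 tags held 5.21. In the double-mutant glands both populations were close, at 5.23 and 2.28 against 3.93 and 2.04 (difference of log2 fold changes 3.40, SE 0.53, edgeR's quasi-likelihood test, adjusted p = 0.0186). Crip1 was higher in the members of all 4 glands, at 7.42, 10.2, 13.4 and 22.8 against 6.19, 4.51, 3.82 and 2.74, and more so in the double-mutant ones (difference 2.28, SE 0.45, edgeR's quasi-likelihood test, adjusted p = 0.0468). In control replicate 1 the same 9 comparison cells held 22.6 UMIs of Crip1 per 10000, and the other 24 held 2.40. Without the cells of high isotype tags 15 of 858 genes passed, 1.75%, 12 upward and 3 downward, and 5 of the 7 were among them. In the epithelial alternative 5 went upward and 6 downward, and with CD11b as a share of tags 17 and 13. In that epithelial alternative the difference was 0.11 for Car6 (adjusted p = 0.978, edgeR) and 0.32 for Pip (adjusted p = 0.917), Klk1 and Mucl1 were not among the genes tested, and Mmp12 still passed (3.91). Without double-mutant replicate 2, 0 passed (edgeR; 52 with an unadjusted p under 0.05), without double-mutant replicate 1, 2 passed, and without control replicate 1 or 2, 21 and 28.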

How the data were processed

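Single-cell RNA and surface antibody tags were analysed in 4 CITE-seq glands at postnatal day 70, 2 control and 2 double-mutant. The authors processed reads with Drop-seq tools and STAR against mm10 with GENCODE vM7 plus Cre and EYFP, removed the human cells added to the libraries, and deposited UMI counts per gene and barcode. Tag counts per antibody were made by the authors with CITEseq-count; whether these are UMIs or reads is not given in the sources used here. The tables list 61 antibodies, 4 of them isotype controls, and 3 summary lines that were left out. Neither kind of count is normalized. Columns of other samples numbered 0. The bulk libraries and the Drop-seq glands had no antibodies and were used only to count cells.

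Barcodes in both tables were kept by the limits given above, and 670322 to 2205865 UMIs per gland remained. UMIs were summed per gland and population where both held at least 10 cells, filtered with filterByExpr, normalized by TMM and tested with edgeR 4.0.16 in R 4.3.3. Gland was a block between populations because both came from the same animal. Replicate numbers were not a block between genotypes: deviations of same-numbered glands correlated at 0.238 over 1124 genes, and with 2 glands per genotype 1 coefficient describes both pairs. Values per 10000 are UMIs of a gene over all UMIs of the same cells. Cells were thinned at random to 400 UMIs to compare detection. Shares were compared by exact permutation over glands (SciPy 1.17.1). The scripts were tested on simulated data. DESeq2 1.42.0, other filters and limits, and leaving out each gland were alternatives.

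The members and the gene lists were chosen with earlier results of these data known. Genes were named by rule: up to 12 in each direction among those past an adjusted p of 0.05 with the same sign in every gland or no overlap between genotypes, up to 4 examples of each list with the highest summed UMIs first, and genes whose antibody is described. Antibodies were named as the 8 highest and 4 lowest ratios among those at 3 or more times the isotype level. Xist, Ddx3y and the other Y-linked genes, H2-Eb1 and H2-Aa between genotypes, Csf1r, Cx3cr1, Mgl2, Cd209a, Fn1, Mrc1, Ly6c2, the genes called without cells of high isotype tags and not in all cells, Apoe by genotype, and the genes shown by CD11b class were named after their values were seen, as were Ly6C, Ly6G, CX3CR1, CD115, CD205 and Trop2. The limit on isotype tags was also set after the data were seen.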

Additional observations from a re-analysis of the deposited data

Results flagged for a closer look

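The RNA difference between members and comparison cells differed between genotypes for 7 genes by the interaction test (edgeR's quasi-likelihood test, adjusted p under 0.05). The difference of log2 fold changes, double-mutant minus control, was 6.24 for Mucl1, 5.64 for Klk1, 4.88 for Car6, 4.41 for Pip, 3.40 for Mmp12, 2.40 for mt-Rnr1 and 2.28 for Crip1. Beside Mucl1, Klk1, Car6 and Pip, the epithelial list summed to 381 and 462 UMIs per 10000 in control comparison cells and to 12.7 and 17.9 in double-mutant ones. That list holds 1 of the called genes, so list and result are not independent. The epithelial alternative also left out cells by UMIs of the same list. These sums include the cells of high isotype tags. In the epithelial alternative the difference was 0.11 for Car6 and 0.32 for Pip, neither passing (adjusted p = 0.978 and 0.917, edgeR). There Klk1 and Mucl1 were not among the genes tested, and Crip1 was at 1.76 (adjusted p = 0.0786, edgeR) while Mmp12 was at 3.91 and passed. Over the alternatives the difference ran from 1.63 to 3.91 for Mmp12 and from 1.64 to 3.24 for Crip1. A UMI of Mmp12 was seen in 9 of 33 comparison cells of control replicate 1 and in 4 of 45 of control replicate 2.

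The ratio of Notch4 tags, members over comparison cells, was 1.14 in double-mutant replicate 2, apart from the other 3 glands at 1.43, 1.42 and 1.39. Such a gap is found in about 1 in 20 groups of 4 by chance. The same check was made on the share of cells, 11 well-stained antibodies and the 9 genes called without cells of high isotype tags. Only Notch4 was past the limit.

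Cells with at least 20 CD11b tags, under 200 IAIE_MHC tags and isotype tags under 100 were in none of the comparisons. They numbered 23 and 22 in double-mutant replicates 1 and 2, above the 2 and 1 cells in the control glands, or 3.61% and 4.43% of cells against 0.298% and 0.137%. Without the limit on isotype tags, which was set after the data were seen, there were 28 and 26 such cells against 12 and 12, so most of the control cells were removed by that limit.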

How the results depend on the processing

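Lyz2 passed between members and comparison cells in 17 of 18 alternatives (log2 fold change 2.31 to 2.77) and Plau in 8 of 18 (−1.48 to −0.71). Genes passing in that comparison, 2 in all, numbered 1 with DESeq2, 31 without a filter on low counts, 1 with comparison cells under 10 CD11b tags, 1 with IAIE_MHC from 100, 21 with CD11b as a share of tags, 31 in the epithelial alternative, 4 without the 10% with most genes, 9 without cells of high isotype tags, 1 in thinned cells and 1 to 7 without 1 gland. Between genotypes, 2 in all, they numbered 80 without a filter, 0 with CD11b from 40, 40 with IAIE_MHC from 100, 0 from 400, 12 with CD11b as a share, 22 without the 10% of cells richest in epithelial RNA, 0 without the 10% with most genes, 17 without cells of high isotype tags, 20 in thinned cells and 0 to 57 without 1 gland. Leaving out double-mutant replicate 1 gave the 0, where 155 had an unadjusted p under 0.05 by edgeR. For the interaction, 7 in all, they numbered 11 with DESeq2, 19 without a filter, 0 with CD11b from 40, 1 with comparison cells under 10 tags, 0 with IAIE_MHC from 400, 30 with CD11b as a share, 11 without the 10% of cells richest in epithelial RNA, 0 without the 10% with most genes, 15 without cells of high isotype tags, 0 in thinned cells and 0 to 28 without 1 gland. At these counts of 0, edgeR gave 99, 171 and 97 genes (between genotypes) and 58, 67, 37 and 26 (interaction) with an unadjusted p under 0.05; 52 for the interaction without double-mutant replicate 2. The causes were not tested. The interaction of mt-Rnr1 reversed to −0.36 in the epithelial alternative.

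Without the gland as a replicate block 0 genes passed between populations (58 at an unadjusted p under 0.05, edgeR), and with replicate number as a block between genotypes 0 passed (176). The R1 and R2 labels share only a number. The genotype difference in share, 3.50 percentage points of cells, was −18.8 of the MHC class II high cells and 0.766 to 6.23 without 1 gland. Antibodies higher in members of all glands, 21 in all, numbered 4 as a share of tags, 9 after division by isotype counts, and 23 to 28 without 1 gland. With 33 to 105 cells per population and gland, depth limited which genes could be tested: Ccr2, S100a4 and Fcgr2b were below the filter in all cells.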

Other observations

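The CD11b-tagged cells without MHC class II were too few in the controls to compare. In double-mutant replicates 1 and 2 they held 119 and 215 UMIs of Lyz2 per 10000, above the 75.2 and 69.2 of the members of the same glands, and 6.40 and 13.9 of C1qa. They held 18.6 and 11.5 of S100a8 and 15.2 and 8.16 of S100a9, calcium-binding proteins of neutrophils and monocytes. Cd74 stood at 64.3 and 74.4. Prol1 was at 351 and 5.28 and Igkc at 80.8 and 108 UMIs per 10000. These values come from 23 and 22 cells.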
